A study of Homo sapiens with 12 samples.

Results

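The RAB GTPases are the subject here, taken as the genes of the deposited mRNA table whose symbol is RAB followed by a number and, where present, a letter and a further digit. The rule gave 63 genes among the 19659 of the table, with 237 of its 83027 transcripts, and it used no measured value. RNA-Seq libraries were made from 3 samples of cells grown with DMAG at 40 µg/ml for 3 days and from 3 control samples. DMAG is a glucoside of a methylated ellagic acid from the burnet Sanguisorba, and the cells of both groups are labelled HEL, a human erythroleukaemia cell line grown in medium with serum. The title sets DMAG in the context of slower proliferation and megakaryocytic differentiation. The titles tell the groups apart, no separate dose, day or vehicle is labelled for the controls, and nothing says that the samples came from separate cultures. P-values therefore measure the spread between these samples, which may be technical.

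RAB proteins are small GTPases that mark the membranes of the cell. A RAB bound to GTP sits on its organelle by prenyl groups and recruits effectors that move, tether and fuse vesicles, and it returns to the cytosol bound to GDI once GTP is hydrolysed. Exchange factors (GEFs) load GTP and GTPase-activating proteins (GAPs) end the cycle. In blood cells several RABs are known for the granules of platelets, mast cells and leukocytes, where RAB27 proteins dock granules at the surface and RAB32 and RAB38 help to build lysosome-related organelles.

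Values are FPKM, fragments scaled by transcript length and library total, summed over the transcripts of a gene, and are given as mean ± SD with n = 3 libraries per group. Since FPKM is scaled by length, levels may be set side by side between genes. The depth behind the FPKM is unknown. Changes are log2 differences of FPKM + 1, DMAG minus control, tested by limma over the 10394 genes whose mean over the 6 libraries reached 0.5 FPKM, and a gene is called when its Benjamini-Hochberg adjusted p is under 0.05. The libraries hold 2 features that bear on every result. Of 15 erythroid and megakaryocyte marker genes expected of HEL cells, only the erythropoietin receptor EPOR reached the tested level, GP9 was listed at 0 in all 6 libraries, and GATA1 was at most 0.142 FPKM. Granulocyte precursor markers were instead abundant, with the 7 genes summing to 1679 to 1904 FPKM in DMAG libraries and 2467 to 2601 FPKM in control libraries. The second feature is DMAG replicate 3, which held 1367 FPKM of the adult globin HBB, against 0.0731 FPKM in DMAG replicate 1 and 0 in the other 4 libraries. In bulk RNA, fewer cells of a type and less RNA per cell cannot be told apart.

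With DMAG, 15 RAB genes rose and 9 fell among the 41 that reached the tested level, and 17 did not pass. This is 58.5% of the RAB genes tested, against 48.6% of all genes tested. Over all genes 22.4% were called higher and 26.1% lower. RAB genes had a median log2 change of 0.13, against -0.01 for all genes. A called change of at least 1 on the log2 scale, in either direction, was held by 5 RAB genes (12.2%), against 2.84% of all genes. DMAG and control libraries did not overlap for 27 RAB genes (65.9%), against 59.5% of all genes tested. Without DMAG replicate 3, the library with globin mRNA, 11 RAB genes were called higher and 6 lower, all 17 of them among the 24 calls above. That fit called 17 of 41 RAB genes and 42.7% of all genes tested, so the RAB share did not exceed that of all genes there.

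**Figure D1:**
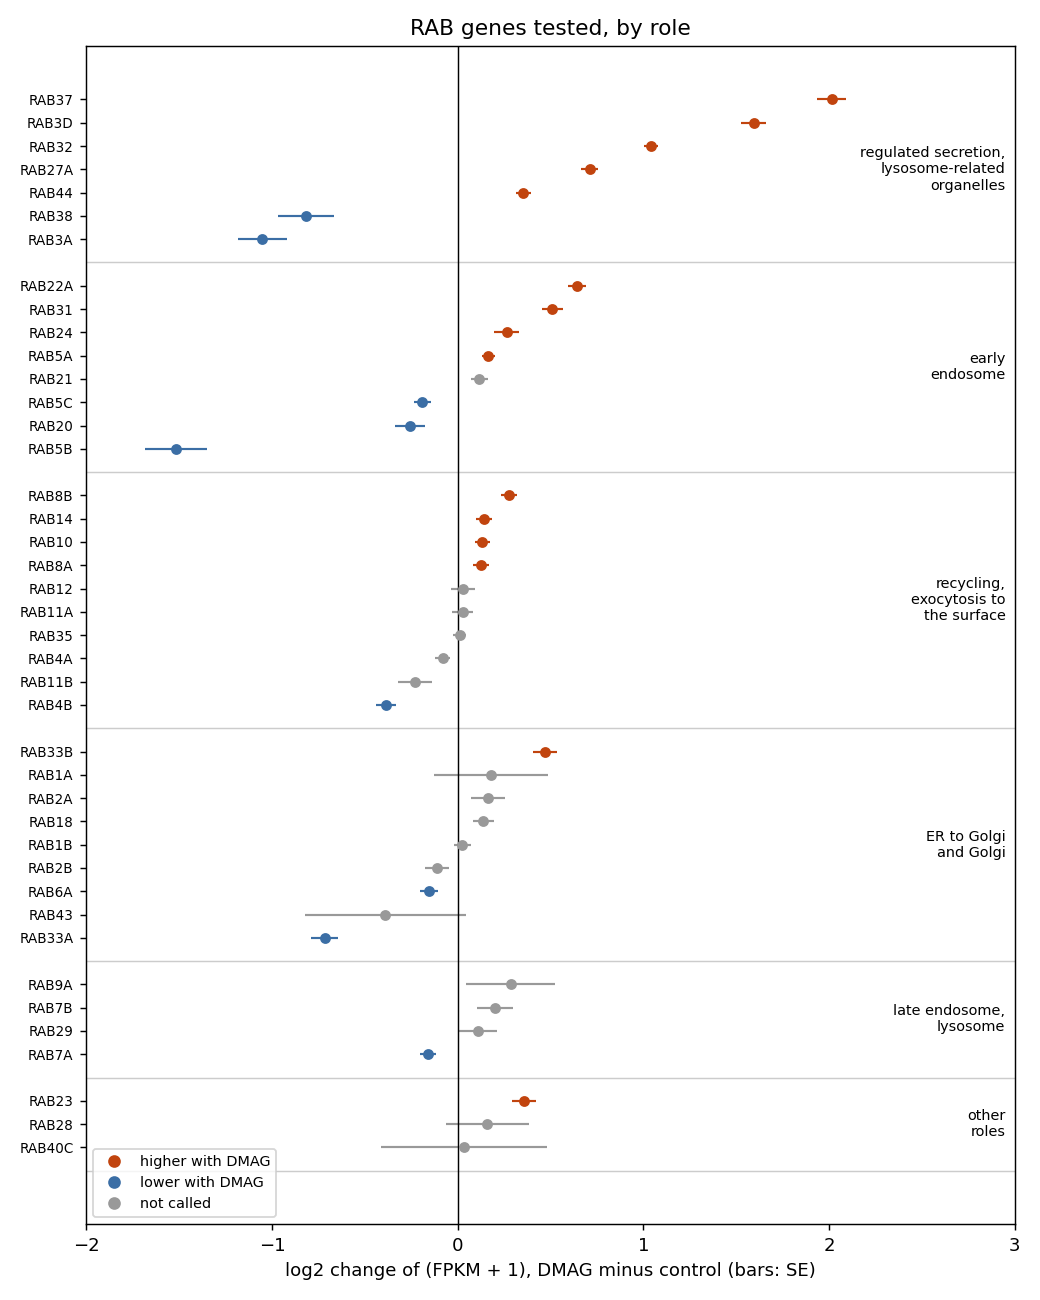
Log2 change of FPKM + 1 (DMAG minus control, horizontal axis) of the 41 RAB genes tested, grouped by role, with the standard error as bars. RAB37 at 2.01 and RAB3D at 1.59 lie farthest to the right, and RAB5B at -1.52 and RAB3A at -1.05 farthest to the left.

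The other 22 RAB genes lay under the tested level and were not tested. The highest of them by its mean over all libraries was RAB26, a secretory granule RAB, at 0.228 ± 0.0757 FPKM with DMAG and 0.393 ± 0.0328 FPKM in controls. RAB19, RAB39A and RAB9B were listed at 0 in each library. The groups did not overlap for 4 of the 22: RAB26, RAB27B and RAB30 had lower values and RAB40A had higher values in DMAG libraries. All 22 lay near the floor, at most 0.531 FPKM in any library, and the depth is unknown. The share without overlap over all genes under the tested level was not computed, so this count is a description only. RAB27B, the platelet form of RAB27, was at 0.00687, 0.0156 and 0.0220 FPKM in DMAG libraries, against 0.0607, 0.0670 and 0.153 FPKM in control libraries. RAB13, RAB17 and RAB25, which are best known from epithelial cells, did not exceed 0.0592 FPKM in any library.

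RABs of regulated secretion and lysosome-related organelles held the 3 largest log2 rises of the family, those of RAB37, RAB3D and RAB32. All 7 tested members of this group were called, 5 higher and 2 lower (against 48.6% of all genes tested called, 22.4% higher and 26.1% lower), with a median log2 change of 0.71. The role groups were drawn up with earlier results of these data known, so counts per role are a description and no independent support. The summed FPKM of the group was 241 ± 2.03 with DMAG and 136 ± 1.82 in controls, or 27.6% ± 0.392 and 17.6% ± 0.132 of the FPKM of the whole family. RAB32 was the largest single part of this sum, at 111 ± 4.12 FPKM with DMAG and 53.7 ± 0.837 FPKM in controls. RAB3A and RAB38 of the group fell. The family as a whole summed to 873 ± 10.6 FPKM with DMAG and 775 ± 4.54 FPKM in controls. Summed FPKM of the 5 monocyte markers moved in the same direction, at 426 to 476 with DMAG and 167 to 172 in controls, nearly all of it from lysozyme (LYZ). Of that list LYZ was called higher and FCGR1A lower, CD14 was at most 0.503 FPKM and 0 in control replicate 3, and CSF1R was at most 0.225 FPKM. Of the 7 granulocyte precursor markers, 3 were higher and 4 lower. The part of either in the RAB values was not tested.

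RAB37 (ENSG00000172794, chromosome 17, 74671131 to 74747335), a RAB of secretory granules, had the largest log2 rise of the RAB genes tested. It was at 13.0, 12.6 and 12.7 FPKM in DMAG libraries, against 2.80, 2.29 and 2.18 FPKM in control libraries. All DMAG libraries thus lay far above all control libraries. The rise was 5.28-fold (log2 change 2.01, SE 0.0784, limma adjusted p = 3.3e-05). How the authors' software divided RAB37 among its 9 transcripts differed between libraries. ENST00000392613 took 3.57, 0.470 and 12.3 FPKM in DMAG libraries, against 2.35, 1.83 and 2.00 FPKM in control libraries. That transcript alone did not pass (log2 change 0.55, adjusted p = 0.64), so the rise rests on the sum over transcripts.

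RAB3D (ENSG00000105514, chromosome 19, 11322068 to 11339657), the RAB3 form of non-neuronal secretory granules such as those of mast cells, was at 15.1, 14.1 and 13.4 FPKM in DMAG libraries, against 4.01, 4.33 and 3.74 FPKM in control libraries. It rose 3.52-fold (log2 change 1.59, SE 0.0693, limma adjusted p = 4.0e-05), and 1 of its 2 transcripts carried all of the FPKM. RAB3A (ENSG00000105649), the RAB of synaptic vesicles, went the other way. It fell to 1.38, 1.02 and 1.75 FPKM in DMAG libraries, against 3.46, 3.86 and 4.44 FPKM in control libraries (2.83-fold, log2 change -1.05, SE 0.134, limma adjusted p = 0.0013). Neither pair of groups overlapped.

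RAB32 (ENSG00000118508, chromosome 6, 146543833 to 146554953), which acts in the making of melanosomes and platelet dense granules and anchors protein kinase A at mitochondria, was at 107, 112 and 115 FPKM in DMAG libraries, against 53.9, 54.4 and 52.8 FPKM in control libraries. It rose 2.08-fold (log2 change 1.04, SE 0.0381, limma adjusted p = 2.9e-05) and was the most abundant RAB mRNA with DMAG, at rank 1 of 63, against rank 4 in controls. RAB38 (ENSG00000123892), its closest relative, was at 0.0342, 0.355 and 0.128 FPKM in DMAG libraries, against 0.833, 1.43 and 0.939 FPKM in control libraries. RAB38 fell 6.19-fold (log2 change -0.82, SE 0.150, limma adjusted p = 0.0054) from a low level, where FPKM + 1 understates a change. RAB38 made up 0.153% ± 0.147 of the summed FPKM of RAB32 and RAB38 with DMAG and 1.95% ± 0.552 in controls. Without control replicate 2 the mean of RAB38 was under the tested level, so the fall has no test there.

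RAB27A (ENSG00000069974, chromosome 15, 55202966 to 55319123), which docks granules at the plasma membrane and whose loss causes Griscelli syndrome in humans, was at 45.2, 42.1 and 41.1 FPKM in DMAG libraries, against 26.6, 25.2 and 25.6 FPKM in control libraries. It rose 1.66-fold (log2 change 0.71, SE 0.0472, limma adjusted p = 1.3e-04). Its main transcript, ENST00000336787, held 81.0% of its FPKM with DMAG and 86.3% in controls and was itself called higher in the test of 38214 transcripts (adjusted p = 0.0040). RAB44 (ENSG00000255587), a long atypical RAB known from granules of mouse mast cells, was at 59.7, 55.8 and 57.0 FPKM in DMAG libraries, against 46.0, 44.1 and 44.3 FPKM in control libraries. That was a 1.28-fold rise (limma adjusted p = 7.5e-04), without overlap of the groups.

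**Figure D2:**
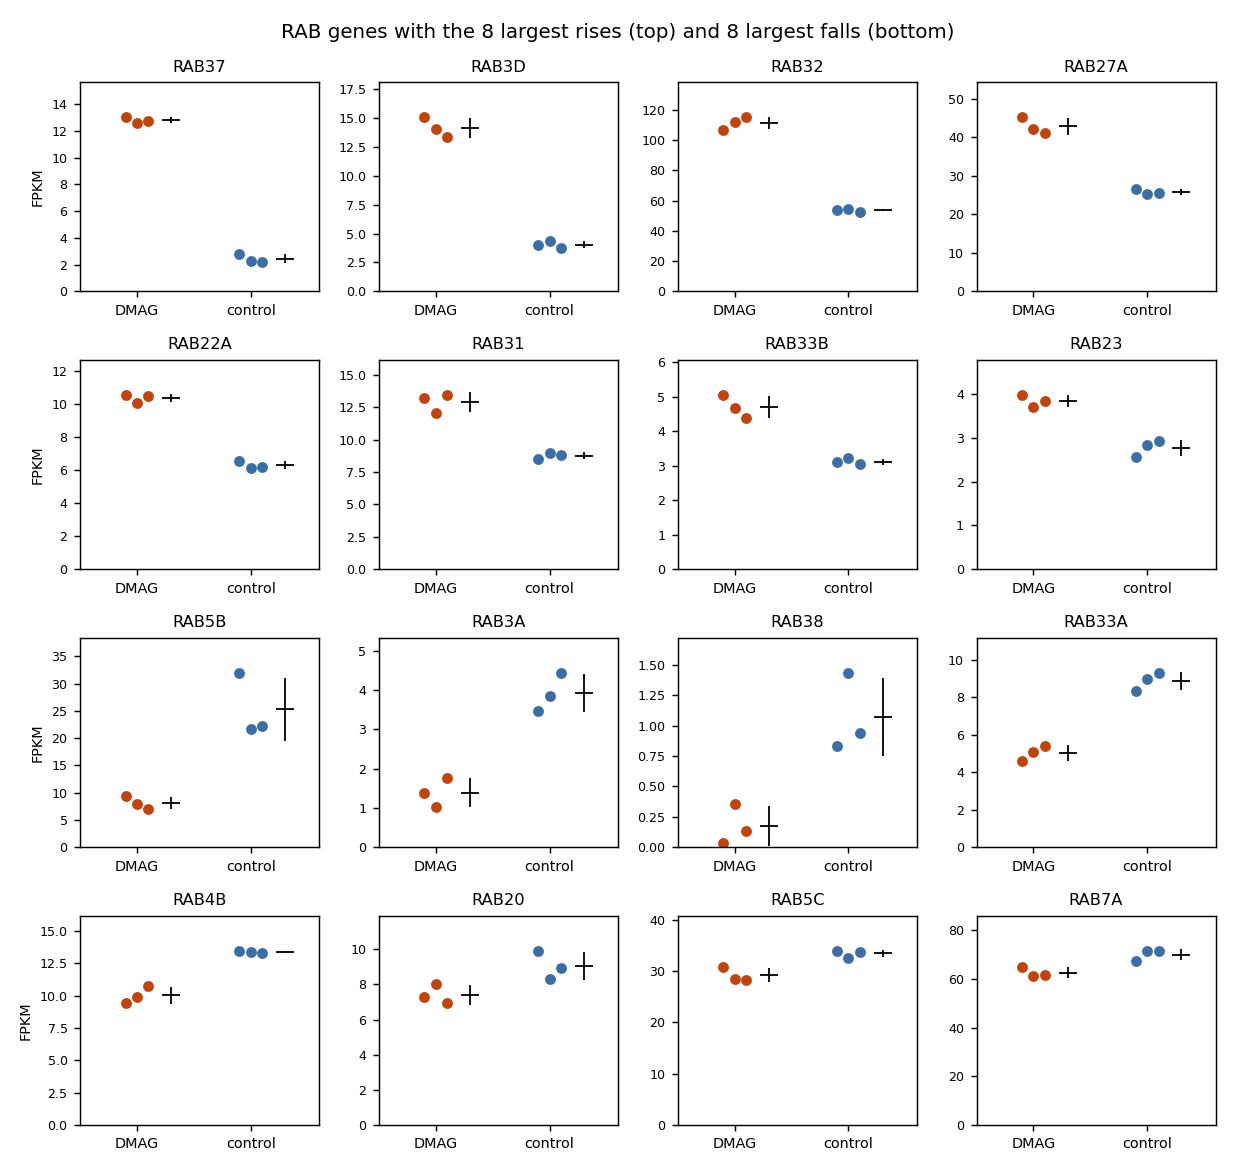
FPKM in each library (points, DMAG left and control right, with mean and SD beside them) for the RAB genes with the 8 largest rises and the 8 largest falls among those called. RAB37 sits at 12.6 to 13.0 FPKM with DMAG and 2.18 to 2.80 in controls, and RAB5B the widest spread among controls, 21.6 to 32.0.

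Promoter sequences are shown for RAB3D, RAB32 and RAB31, which rose, and for RAB3A, which fell. RAB3D and RAB3A are close relatives that moved in opposite directions, and no rule set the choice of RAB32 and RAB31. Each is a RefSeq window of 300 bases on GRCh38.p14, 250 before and 50 after the annotated start, written 5′ to 3′ on the strand of the gene. Capitals mark the E-box CACGTG and the GC box GGGCGG, searched on both strands, with CCGCCC being the GC box on the other strand. The windows are chr19:11339608-11339907 (minus strand) for RAB3D, chr6:146543583-146543882 (plus) for RAB32, chr18:9708051-9708350 (plus) for RAB31 and chr19:18203993-18204292 (minus) for RAB3A.
RAB3D: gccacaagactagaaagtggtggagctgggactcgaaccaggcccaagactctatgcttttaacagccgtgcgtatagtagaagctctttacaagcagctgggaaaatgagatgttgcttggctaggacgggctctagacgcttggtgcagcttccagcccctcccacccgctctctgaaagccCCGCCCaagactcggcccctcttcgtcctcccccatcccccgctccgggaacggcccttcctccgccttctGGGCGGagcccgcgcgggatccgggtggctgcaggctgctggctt
RAB32: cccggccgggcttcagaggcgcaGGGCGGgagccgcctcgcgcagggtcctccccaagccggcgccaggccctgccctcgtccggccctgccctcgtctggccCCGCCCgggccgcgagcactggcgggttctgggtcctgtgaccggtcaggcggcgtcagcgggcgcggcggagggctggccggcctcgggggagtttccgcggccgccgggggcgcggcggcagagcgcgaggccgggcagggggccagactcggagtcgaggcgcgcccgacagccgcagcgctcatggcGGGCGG
RAB31: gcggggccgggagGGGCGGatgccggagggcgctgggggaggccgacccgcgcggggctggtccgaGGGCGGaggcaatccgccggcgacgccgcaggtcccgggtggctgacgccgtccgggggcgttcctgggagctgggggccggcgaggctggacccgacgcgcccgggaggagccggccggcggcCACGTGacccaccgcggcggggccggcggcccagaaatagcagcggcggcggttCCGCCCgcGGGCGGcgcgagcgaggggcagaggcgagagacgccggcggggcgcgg
RAB3A: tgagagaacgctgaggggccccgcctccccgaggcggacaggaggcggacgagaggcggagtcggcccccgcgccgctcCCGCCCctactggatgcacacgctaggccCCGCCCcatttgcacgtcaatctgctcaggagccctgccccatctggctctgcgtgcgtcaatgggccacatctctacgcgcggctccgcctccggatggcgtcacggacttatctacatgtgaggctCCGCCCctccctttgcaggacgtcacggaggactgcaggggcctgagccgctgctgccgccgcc

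The RAB31 window holds 1 E-box, which begins 60 bases before the start, and 4 GC boxes. The windows of RAB3D, RAB32 and RAB3A hold no E-box, with 2, 3 and 3 GC boxes, and the CCAAT box, also searched on both strands, is in none of the 4 windows. RefSeq windows were held for 50 of the RAB genes, 71 in all. GGGCGG was in 73.2% of these windows, against 45.0% of all 35116 windows, and CACGTG was in 8.45%, against 7.26%. Of RAB genes with a window, GGGCGG was found for 41 of 50, among them 12 of 12 called higher and 6 of 6 called lower. CACGTG was found for 6 of the 50. These were 3 of the 12 called higher (RAB24, RAB31 and RAB5A), 0 of the 6 called lower, and RAB21, RAB29 and RAB4A, which were not called. For all genes only the share of windows, and not of genes, was computed. The AP-1 motif TGANTCA was in 11.3% of the RAB windows and 7.71% of all windows. Letters matched in this way are a description and not evidence of binding.

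RABs of the early endosome were called in 7 of 8 tested members, 4 higher and 3 lower (87.5%, against 48.6% of all genes tested), and RAB5B had the largest change of the 8. This group too was drawn up with earlier results known. It holds RAB20, of phagosomes and endosomes, and RAB24, linked to autophagy, whose calls were kept in 7 and 10 of 14 alternative fits. RAB5 proteins drive fusion of early endosomes. RAB5B (ENSG00000111540, chromosome 12, 55973949 to 55996683) was at 9.34, 7.90 and 7.03 FPKM in DMAG libraries, against 32.0, 21.6 and 22.2 FPKM in control libraries. Control replicate 1 stood above the other controls, and every DMAG library lay below all of them. The fall was 3.12-fold (log2 change -1.52, SE 0.168, limma adjusted p = 7.4e-04). Its transcripts were divided unevenly: ENST00000553116 took 26.3 FPKM in control replicate 1 and at most 0.00685 FPKM in the other controls, where ENST00000360299 took 18.0 and 18.0 FPKM. The most abundant transcript by itself did not pass (adjusted p = 0.42).

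RAB5A rose slightly to 26.4 ± 0.445 FPKM with DMAG, against 23.4 ± 0.348 FPKM in controls (limma adjusted p = 0.0090). RAB5C was at 30.8, 28.4 and 28.3 FPKM in DMAG libraries, against 33.9, 32.6 and 33.8 FPKM in control libraries. It fell 1.15-fold (limma adjusted p = 0.015), a call lost without DMAG replicate 2 (adjusted p = 0.0503) or with quantile normalization (adjusted p = 0.073).

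RAB22A and RAB31, close relatives of RAB5 that sort cargo between endosomes, recycling carriers and the Golgi, both rose. RAB22A (ENSG00000124209) was at 10.6, 10.1 and 10.5 FPKM in DMAG libraries, against 6.57, 6.11 and 6.22 FPKM in control libraries (1.65-fold, log2 change 0.64, SE 0.0497, limma adjusted p = 2.1e-04). RAB31 (ENSG00000168461) was at 13.2, 12.1 and 13.4 FPKM in DMAG libraries, against 8.47, 8.98 and 8.83 FPKM in control libraries (1.47-fold, limma adjusted p = 7.3e-04). Each is listed with 1 transcript, so neither value depends on how reads were divided among transcripts. RAB20, a RAB of phagosomes and endosomes, was at 7.26, 8.05 and 6.95 FPKM in DMAG libraries, against 9.92, 8.31 and 8.95 FPKM in control libraries. Its fall had an adjusted p of 0.041 by limma, which was 0.088 to 0.11 when DMAG replicate 1 or 3 or control replicate 1 or 3 was left out. The RAB20 call was kept in 7 of 14 alternative fits. RAB24, linked to autophagy, rose 1.24-fold (limma adjusted p = 0.019), a call lost without DMAG replicate 2 or 3 or control replicate 1 (adjusted p = 0.053 to 0.059). The RAB24 call was also lost with the most abundant transcript. RAB21 had 9.65 ± 0.259 FPKM with DMAG and 8.81 ± 0.0311 FPKM in controls and did not pass (adjusted p = 0.068).

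Of 10 tested RABs of recycling and of exocytosis to the surface, 4 rose and 1 fell, or 50% called, against 48.6% of all genes tested. None of the 5 called changes reached 1 on the log2 scale. The summed FPKM of this group was 256 ± 1.96 FPKM with DMAG and 249 ± 3.45 FPKM in controls. RAB4B (ENSG00000167578), a RAB of fast recycling from early endosomes, was at 9.44, 9.89 and 10.7 FPKM in DMAG libraries, against 13.5, 13.4 and 13.3 FPKM in control libraries. It fell 1.34-fold (log2 change -0.39, SE 0.0544, limma adjusted p = 0.0019), with no overlap of the groups. RAB4B lies in annotated read-through transcripts with its neighbour EGLN2, so its reads can be shared. Its relative RAB4A was at 12.9 ± 0.258 FPKM with DMAG and 13.7 ± 0.0565 FPKM in controls (adjusted p = 0.13).

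RAB8A and RAB10, which deliver vesicles to the plasma membrane, were among the 6 most abundant RABs in both groups. RAB8A was at 62.3, 62.5 and 62.6 FPKM in DMAG libraries, against 54.5, 57.0 and 60.1 FPKM in control libraries. RAB10 was at 54.6, 53.4 and 55.1 FPKM in DMAG libraries, against 50.9, 47.2 and 50.4 FPKM in control libraries. For both the groups did not overlap, and the rises were near 1.1-fold with limma adjusted p = 0.048 for RAB8A and adjusted p = 0.035 for RAB10. The RAB8A call was lost without any 1 of the DMAG replicates or control replicate 1 or 2 (adjusted p = 0.10 to 0.11), and the RAB10 call without any 1 of the DMAG replicates or control replicate 2 or 3 (adjusted p = 0.060 to 0.092). Over 14 alternative fits, the RAB8A call was kept in 5 and the RAB10 call in 8. RAB14, of the Golgi and endosomes, rose 1.11-fold, and its call was lost without any 1 of the DMAG replicates or control replicate 2 or 3 (adjusted p = 0.051 to 0.097). RAB8B rose 1.23-fold (13.8 ± 0.261 and 11.2 ± 0.244 FPKM with DMAG and in controls, limma adjusted p = 0.0025). RAB11A, RAB12 and RAB35, which act in recycling, had log2 changes between 0.01 and 0.03 and did not pass. RAB11B had 25.6 ± 2.29 FPKM with DMAG and 30.2 ± 2.98 FPKM in controls (adjusted p = 0.081), but it was called lower in 4 of 14 alternative fits.

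**Figure D3:**
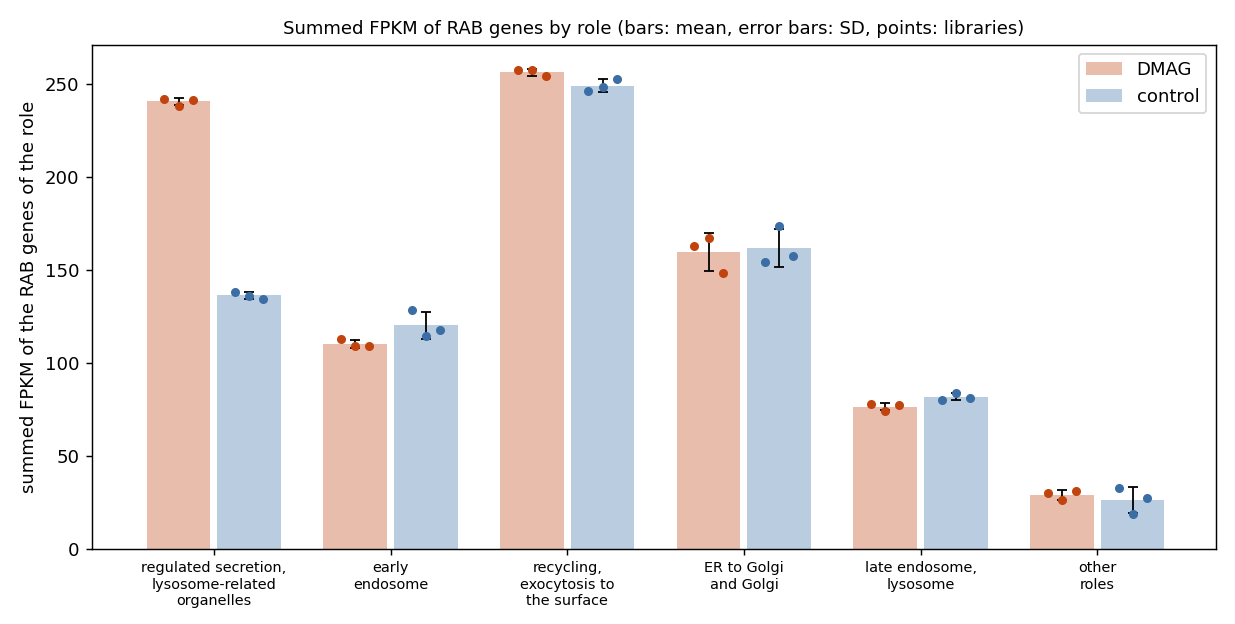
Summed FPKM of the RAB genes of each role (bars are means, error bars SD, points the 3 libraries per group, DMAG left of control). Regulated secretion and lysosome-related organelles stand at 241 with DMAG and 136 in controls, while recycling and exocytosis stand at 256 and 249.

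Among RABs of the endoplasmic reticulum and Golgi, 1 of 9 tested members rose and 2 fell, or 33.3% called, against 48.6% of all genes tested. RAB1B, which acts in transport from the endoplasmic reticulum to the Golgi, was at 53.7, 57.6 and 55.2 FPKM in DMAG libraries, against 52.1, 56.9 and 54.7 FPKM in control libraries. The groups overlapped almost fully (log2 change 0.02, adjusted p = 0.69). RAB33A and RAB33B, of which RAB33B is a Golgi RAB that binds the autophagy protein ATG16L1, moved in opposite directions. RAB33A (ENSG00000134594) was at 4.57, 5.07 and 5.40 FPKM in DMAG libraries, against 8.32, 8.98 and 9.30 FPKM in control libraries (1.77-fold lower, log2 change -0.72, SE 0.0728, limma adjusted p = 5.4e-04). RAB33B (ENSG00000172007) was at 5.05, 4.68 and 4.40 FPKM in DMAG libraries, against 3.10, 3.22 and 3.04 FPKM in control libraries (1.51-fold higher, log2 change 0.47, SE 0.0643, limma adjusted p = 0.0017). Both are listed with 1 transcript.

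RAB6A, of retrograde Golgi transport, fell 1.12-fold (30.7 ± 0.280 and 34.3 ± 2.01 FPKM with DMAG and in controls, limma adjusted p = 0.039). Its call was lost under each scaling tried, with adjusted p = 0.064 with median scaling and adjusted p = 0.23 with quantile normalization, and without any 1 of the DMAG replicates or control replicate 2 or 3 (adjusted p = 0.063 to 0.097). The RAB6A call was kept in 4 of 14 alternative fits. RAB6A is also uncertain because the near-identical genes RAB6C and RAB6D can share its reads. RAB2A, RAB2B and RAB18 did not pass (adjusted p = 0.19, 0.20 and 0.097). RAB1A was uneven within groups, at 32.6, 32.2 and 18.8 FPKM in DMAG libraries, against 19.5, 35.8 and 19.2 FPKM in control libraries (adjusted p = 0.66).

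Of 4 tested RABs of the late endosome and lysosome, 1 was called, lower (25.0%, against 48.6% of all genes tested). RAB7A (ENSG00000075785), which directs fusion of late endosomes and autophagosomes with lysosomes, was the most abundant RAB in controls. It was at 65.0, 61.0 and 61.5 FPKM in DMAG libraries, against 67.2, 71.3 and 71.5 FPKM in control libraries. The fall was 1.12-fold (log2 change -0.16, limma adjusted p = 0.022), a call lost without DMAG replicate 2 or 3 or control replicate 2 or 3 (adjusted p = 0.063 to 0.071) and with quantile normalization (adjusted p = 0.30). The RAB7A call was also lost with the replicate block. RAB7B, RAB29 and RAB9A did not pass (adjusted p = 0.13, 0.41 and 0.37). Of the remaining roles, RAB23, a negative regulator of hedgehog signalling in the mouse, was at 3.99, 3.70 and 3.86 FPKM in DMAG libraries, against 2.57, 2.84 and 2.93 FPKM in control libraries. It rose 1.38-fold (log2 change 0.36, limma adjusted p = 0.0048) with no overlap.

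Of the RABs that share a number, 9 sets had at least 2 tested members, and in 3 of them members were called in opposite directions, namely RAB3, RAB5 and RAB33. Over all genes tested 22.4% were called higher and 26.1% lower, and no like count was made for sets of other genes. The RAB5B call was lost when the most abundant transcript stood for the gene. RAB3D held 89.9% ± 2.19 of the FPKM of the RAB3 set with DMAG and 49.5% ± 4.25 in controls, and RAB3A 8.80% ± 2.47 and 48.0% ± 4.29. In the RAB5 set, RAB5B held 12.7% ± 1.41 with DMAG and 30.5% ± 4.46 in controls, and RAB5A 41.5% ± 2.03 and 28.6% ± 1.91. RAB33B held 48.4% ± 3.84 of its set with DMAG and 26.1% ± 1.27 in controls. The sets also differed in total: RAB3 summed to 15.8 ± 0.825 FPKM with DMAG and 8.15 ± 0.370 in controls, RAB5 to 63.6 ± 2.10 and 82.1 ± 6.55, and RAB33 to 9.72 ± 0.0904 and 12.0 ± 0.496. In the RAB1 set the shares differed by less than the spread between libraries, with RAB1B at 67.0% ± 6.69 with DMAG and 69.4% ± 6.98 in controls.

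**Figure D4:**
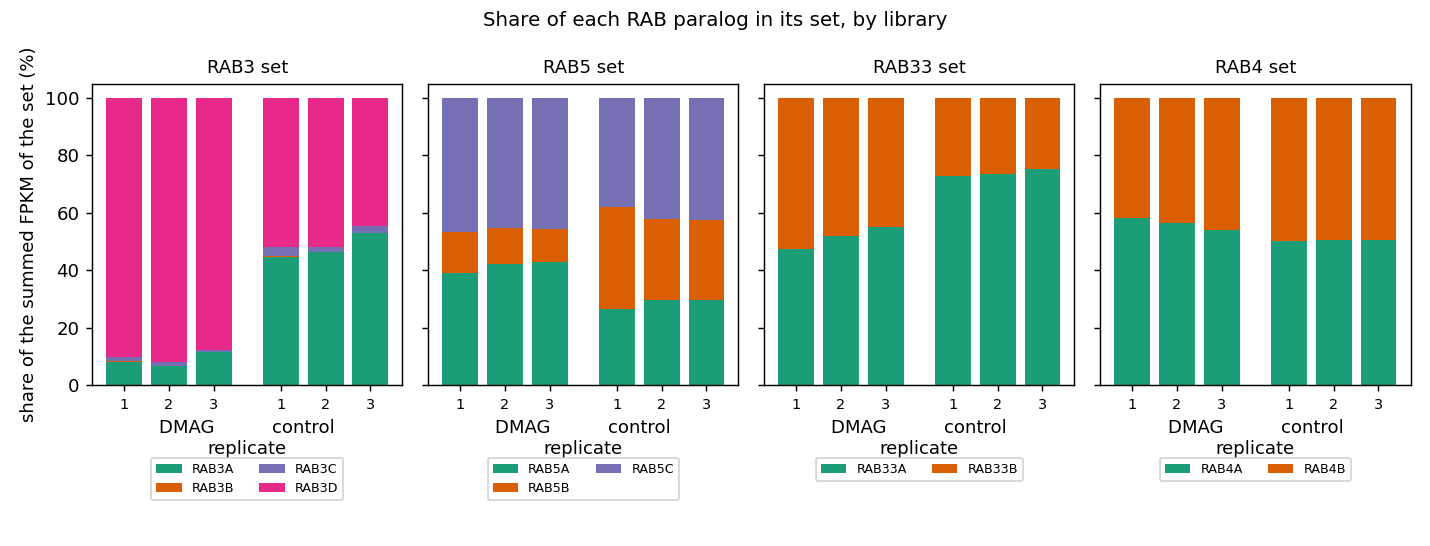
Share of each member in the summed FPKM (%) of its numbered set, for each DMAG library (left) and each control library (right). RAB3D fills 89.9% of the RAB3 set with DMAG on average and 49.5% in controls, and RAB5B 12.7% and 30.5% of the RAB5 set.

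In the test per transcript, 15 of 108 tested RAB transcripts were called (13.9%), 11 higher and 4 lower, against 6.56% of all transcripts tested. The transcripts called higher included the single transcripts of RAB22A, RAB31, RAB32, RAB33B and RAB44, and that of RAB33A was called lower. For RAB5B the minor transcript ENST00000628569 was at 0.395, 1.03 and 0.548 FPKM in DMAG libraries and listed at 0 in each control library (adjusted p = 0.019), while the gene as a whole fell. RAB35 likewise had 1 transcript called higher, ENST00000534951, while the gene did not pass (24.3 ± 0.529 and 24.1 ± 0.0927 FPKM with DMAG and in controls, adjusted p = 0.80).

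**Figure D5:**
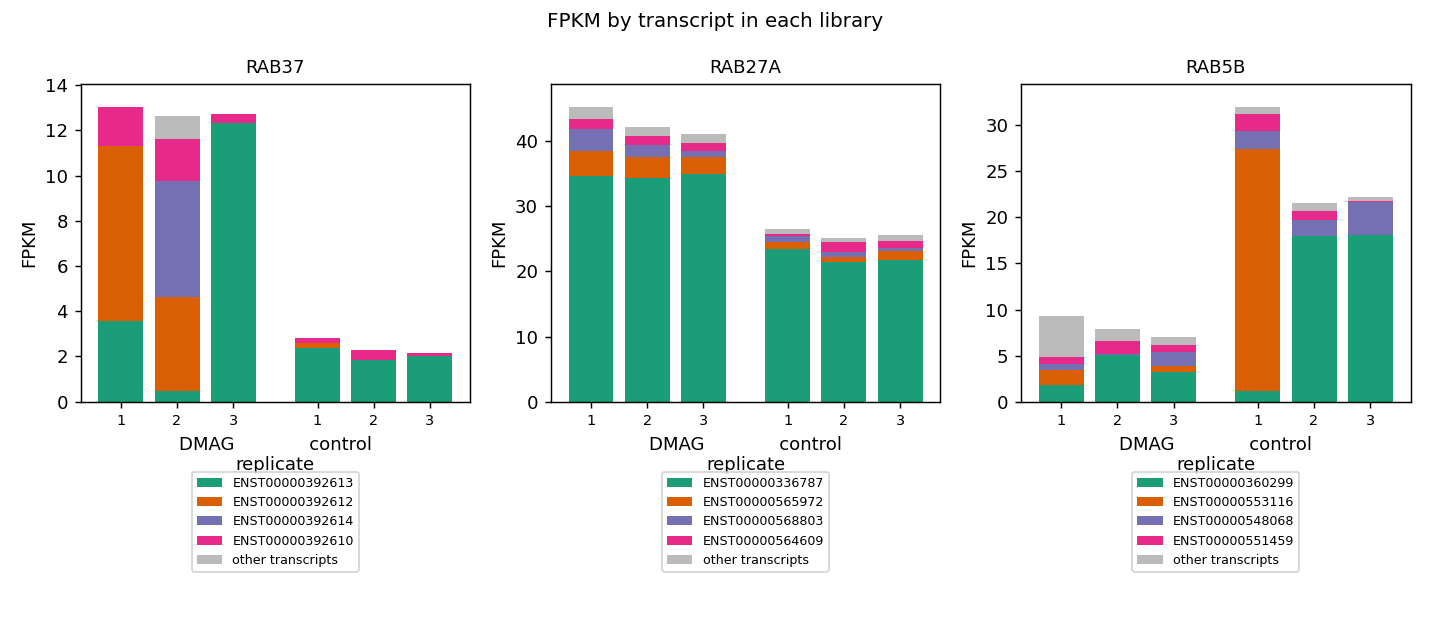
FPKM of the 4 most abundant transcripts and of all others, stacked, for RAB37, RAB27A and RAB5B in each DMAG library (left) and control library (right). The height of RAB37 is 12.6 to 13.0 FPKM in the DMAG libraries although its make-up differs between them, and ENST00000553116 of RAB5B stands out in control replicate 1 at 26.3 FPKM.

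The genes of proteins that act on RABs were called about as often as genes in general. Over 4 lists with 136 genes, 34 of 117 tested rose and 23 fell (48.7% called, against 48.6% of all genes tested), with a median log2 change of 0.05. Of 8 genes of prenylation and of recycling to the cytosol, 2 rose, 2 fell and 4 did not pass. CHM, the escort protein that presents new RABs for prenylation, was at 8.18 ± 0.183 FPKM with DMAG and 6.95 ± 0.171 FPKM in controls and rose (limma adjusted p = 0.012). Its relative CHML was at 19.2 ± 1.49 FPKM with DMAG and 23.7 ± 0.339 FPKM in controls and fell (limma adjusted p = 0.0082). RABGGTA, a subunit of the prenyl transferase, fell (limma adjusted p = 0.028) and RABAC1, a receptor for prenylated RABs, rose (limma adjusted p = 0.041), with RABAC1 at 23.2, 30.9 and 29.1 FPKM in DMAG libraries, against 11.1, 21.0 and 18.1 FPKM in control libraries.

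Of 38 GEFs tested, 11 rose and 6 fell (44.7% called, against 48.6% of all genes tested). DENND5A (11.7 ± 0.597 and 7.01 ± 0.220 FPKM with DMAG and in controls, limma adjusted p = 2.5e-04), DENND1C (7.87 ± 0.234 and 5.00 ± 0.281 FPKM), TRAPPC6B (17.5 ± 0.740 and 12.4 ± 0.489 FPKM) and TRAPPC6A (18.5 ± 0.825 and 10.2 ± 1.28 FPKM) rose. DENND1C acts on RAB35, and the TRAPPC6 proteins are subunits of TRAPP, a complex that activates RAB1. Of 29 GAPs tested, 7 rose and 7 fell (48.3% called, against 48.6% of all genes tested). TBC1D8 had the smallest p and fell to 9.46 ± 0.171 FPKM with DMAG, against 18.6 ± 0.248 FPKM in controls (limma adjusted p = 4.0e-05). RABGAP1L (9.03 ± 0.730 and 14.4 ± 0.970 FPKM) and TBC1D22A (7.11 ± 0.525 and 11.1 ± 0.735 FPKM) fell as well. TBC1D10A, a GAP for RAB27A, was at 5.57, 5.06 and 4.81 FPKM in DMAG libraries, against 2.30, 2.72 and 3.29 FPKM in control libraries, and rose 1.86-fold (limma adjusted p = 0.0027).

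Of 42 effectors tested, 14 rose and 8 fell (52.4% called, against 48.6% of all genes tested). LRRK2, a kinase that is recruited by RAB29 and phosphorylates RAB8A and RAB10, was at 1.97, 1.91 and 1.68 FPKM in DMAG libraries, against 0.307, 0.152 and 0.284 FPKM in control libraries. Its log2 change was 1.19 (SE 0.0842, limma adjusted p = 1.6e-04), and its control level lay below 0.5 FPKM, where FPKM + 1 understates a change. MICAL1, which binds RAB8 and RAB10 and oxidises actin, rose 1.89-fold (limma adjusted p = 1.7e-04). RABEP1, the RAB5 effector rabaptin-5, was at 11.5, 11.5 and 11.5 FPKM in DMAG libraries, against 19.1, 17.6 and 17.3 FPKM in control libraries, and fell 1.57-fold (limma adjusted p = 2.7e-04). UNC13D, which primes granules for release as a partner of RAB27A, was at 13.2, 14.3 and 13.9 FPKM in DMAG libraries, against 20.3, 20.8 and 19.6 FPKM in control libraries (limma adjusted p = 3.2e-04). It fell 1.47-fold, so its direction was opposite to that of RAB27A.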

How the data were processed

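RNA-Seq libraries of 3 DMAG and 3 control samples were used. Per the labels' protocols, RNA was depleted of rRNA and libraries were made with dUTP in the second strand; whether counting used strand is not given in the sources used here. Expression was deposited by the authors as FPKM for each transcript. The submitters' processing notes name GRCh38, HISAT2 2.0.4, Bowtie and StringTie 1.3.3 without their roles. Depth is not given, so no count test was made. FPKM were summed over transcripts per gene, genes whose mean reached 0.5 FPKM were kept, and log2(FPKM + 1) was tested with limma 3.58.1 (R 4.3.3, mean trend, Benjamini-Hochberg over all genes, threshold 0.05). On that scale changes of low genes are understated. Transcripts, kept from a mean of 0.1 FPKM up, were fitted as log2(FPKM + 0.1). The procedure was tested on simulated data with independent noise and far fewer changed genes than were called here. That check does not cover noise shared between samples or the division among transcripts. The groups share replicate numbers, but deviations from the group means of same-numbered samples did not go together, so no pairing was used.

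The members, role lists, pathway lists and markers were chosen with earlier results of these data known. Values per library are given for the called members with the 8 largest rises and the 8 largest falls without overlap, the 5 most abundant members and the member of each role with the smallest p; up to 4 genes of each pathway list with the smallest p are named. Other members given with values were chosen after their values were seen. Alternatives were other pseudocounts, filters, scalings, a fit without the mean trend, the most abundant transcript, the replicate block and leaving out each library. The deposited lncRNA, miRNA and circRNA tables were not used here. Coordinates and promoters are from RefSeq on GRCh38.p14. RAB promoters on chromosome 8 were left out. The 35116 windows of all genes were instead chosen by their length of 300 bases, without that filter.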

Additional observations from a re-analysis of the deposited data

How the results depend on the processing

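Over 14 alternatives, 14 of the 24 RAB calls were kept in each one that gave a value (10 higher and 4 lower), and 16 were kept in each fit without 1 library that gave a value; RAB37 and RAB5B were lost when the most abundant transcript stood for the gene. RAB counts were 11 to 14 higher and 6 to 9 lower when 1 library was left out, 12 and 8 with the most abundant transcript, 15 and 6 with quantile normalization and 14 and 7 with a replicate block. Beside them, 17 to 23 of 40 or 41 RAB genes were called with 1 library left out, against 40.7% to 44.2% of all genes. The share of all genes called was 33.0% with the most abundant transcript, 47.6% with quantile normalization and 43.2% with a replicate block. Same-numbered samples did not deviate together, so the block is no paired design. With the most abundant transcript, 1768 genes in all were lower, GAPs were 2 higher and 2 lower, effectors 8 higher and 4 lower, and prenylation and GDI genes 1 higher and 1 lower, and log2 changes were -0.085 for RAB35, -1.83 for RAB40C and 0.015 for RAB43. With the replicate block 4 effectors and 1 prenylation or GDI gene were lower, and with no filter 1 prenylation or GDI gene was higher. With 1 library left out, GAPs were 3 to 6 higher and 4 to 6 lower, effectors 3 to 7 lower, and prenylation and GDI genes 1 to 2 higher and 1 to 2 lower. Log2 changes that turned sign then spanned -0.014 to 0.057 for RAB11A, -0.0090 to 0.077 for RAB12, -0.0069 to 0.054 for RAB1B, -0.10 to 0.31 for RAB28, -0.21 to 0.47 for RAB40C and -0.69 to 0.064 for RAB43. The cause was not tested. RAB38, counted among the 14 and the 16, has no value without control replicate 2 or with the filter at a mean of 2 FPKM. Some tested members not called above were called in alternatives. RAB11B was called lower with the most abundant transcript, with the replicate block and without DMAG replicate 2 or control replicate 1. RAB40C was called lower with the most abundant transcript, RAB21 higher with median scaling and RAB7B higher without control replicate 1. Same-named lncRNAs and circRNAs of RAB genes were planned and not run. Unknown depth limits what can be said of the 22 RAB genes under 0.5 FPKM.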

Other observations

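Several RAB genes differed more within a group than between groups. RAB40C was at 11.3, 4.11 and 12.2 FPKM in DMAG libraries, against 13.6, 6.05 and 6.47 FPKM in control libraries. RAB43 was at 4.02, 4.94 and 2.14 FPKM in DMAG libraries, against 10.1, 3.84 and 2.90 FPKM in control libraries, and its reads can be shared with the read-through gene ISY1-RAB43. RAB28 was at 14.5, 18.3 and 15.0 FPKM in DMAG libraries, against 16.4, 9.59 and 17.7 FPKM in control libraries. For RAB40C the transcript ENST00000248139 was at 0.452, 1.11 and 0.531 FPKM in DMAG libraries, against 11.5, 3.08 and 3.12 FPKM in control libraries. It held 11.8% of the gene's FPKM with DMAG and 61.2% in controls, without overlap of the groups in FPKM, while the gene as a whole overlapped.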
